A study of Mus musculus with 4 samples.

Results

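Claudins and their partners at the tight junction were followed in organoids from mouse intestine, a culture of gut epithelium in Matrigel. The 10 genes are Cldn1, Cldn2, Cldn3, Cldn4, Cldn7, Cldn8, Cldn15, Cldn23, Tjp1 and Ocln. They were taken by symbol: every probe set annotated to exactly one of these genes was kept, which gave 18 of the 45101 probe sets on each array and 10 of 18193 genes. Each gene is represented by the probe set with the highest mean log2 value, and its other probe sets are described beside it. All organoids carried floxed Apc alleles (Apc fl/fl). One arm received 4-hydroxytamoxifen (4OHT) for 24 h, which recombines Apc, and the other stayed untreated. Both arms were harvested on day 4 and on day 6, which makes 4 groups. Each group is a single array, made from 100 ng of total RNA, so nothing measures the spread between cultures and this sets the precision of every value. Per the labels, organoids given 4OHT are Apc-deficient and the others normal. The recombinase, the cells it is active in, the part of Apc removed and the age of the animals are not stated in those labels. Organoids that received 4OHT but lack floxed alleles were not analysed here, so 4OHT itself and the loss of Apc cannot be told apart.

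Tight junctions close the gap between neighbouring epithelial cells near their apical side. Claudins are multi-pass membrane proteins whose extracellular loops meet those of the next cell and set which ions pass between the cells: some, such as claudin-2 and claudin-15, form channels for small cations, while others, such as claudin-4, tighten the barrier. Occludin is a further membrane protein of the same strands. ZO-1, the product of Tjp1, is a cytoplasmic scaffold that binds claudins and ties them to actin. Along the intestine each segment and each position between crypt and villus has its own mixture of claudins, and Apc, a negative regulator of Wnt signalling, acts in the crypt.

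Promoter sequences are shown for 3 claudins whose values the results turn on: Cldn4, which was higher with 4OHT on each day, Cldn15, whose 4OHT difference changed direction between the days, and Cldn2, the other channel-forming claudin, which was higher at day 6 in both arms. Each is a RefSeq window of 300 bases in GRCm38.p6, from 250 before to 50 after the start of the gene, written 5′ to 3′ on the gene's own strand. Capitals mark exact matches, on either strand, to 6 motifs: CTTTGA or CTTTGT for TCF/LEF factors, TTTATG for CDX factors, AGATAA for GATA factors, TGANTCA for AP-1, GGGCGG for the GC box and TATAAA for the TATA box. No 2 matches overlap in these windows. The Cldn4 window lies at chr5:134946885-134947184 on the minus strand, that of Cldn15 at chr5:136967619-136967918 on the plus strand, and that of Cldn2 at chrX:139800558-139800857 on the plus strand.
Cldn4: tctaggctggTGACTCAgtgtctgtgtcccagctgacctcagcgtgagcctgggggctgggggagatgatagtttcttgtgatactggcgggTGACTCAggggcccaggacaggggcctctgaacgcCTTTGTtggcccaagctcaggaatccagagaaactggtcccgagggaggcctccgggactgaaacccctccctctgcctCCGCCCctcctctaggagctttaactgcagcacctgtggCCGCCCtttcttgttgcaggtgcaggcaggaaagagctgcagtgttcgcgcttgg
Cldn15: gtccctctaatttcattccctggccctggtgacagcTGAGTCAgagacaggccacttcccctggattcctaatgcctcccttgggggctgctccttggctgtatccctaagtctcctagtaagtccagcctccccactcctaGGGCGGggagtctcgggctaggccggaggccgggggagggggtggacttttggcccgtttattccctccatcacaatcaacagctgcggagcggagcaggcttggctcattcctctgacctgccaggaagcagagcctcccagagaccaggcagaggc
Cldn2: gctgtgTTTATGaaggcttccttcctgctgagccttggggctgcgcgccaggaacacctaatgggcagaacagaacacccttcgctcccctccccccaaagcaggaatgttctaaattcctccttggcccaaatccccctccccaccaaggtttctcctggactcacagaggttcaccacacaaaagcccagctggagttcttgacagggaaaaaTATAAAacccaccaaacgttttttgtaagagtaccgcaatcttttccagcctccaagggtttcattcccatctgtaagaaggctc

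The Cldn4 window held 2 AP-1 matches, 1 TCF/LEF match beginning 123 bases before the start site and 2 GC boxes. The Cldn15 window held 1 AP-1 match and 1 GC box and no TCF/LEF match. The Cldn2 window held a CDX match and a TATA box 35 bases before the start site, and no GC box. Over all 32851 promoter windows in the table, 31.2% held a TCF/LEF match, 7.81% an AP-1 match (0.46% held 2 or more), 35.7% a GC box, 11.9% a CDX match, 11.2% a GATA match and 13.6% a TATA box. The table holds 10 windows for 8 of the 10 genes, 2 of them for Cldn7 and 2, which overlap, for Ocln. Of these 10 windows, 2 held a TCF/LEF match (Cldn4 and Cldn1), 2 an AP-1 match, 8 a GC box, 1 a CDX match, 1 a TATA box and none a GATA match. Such matches are letters in a window and are not evidence that a factor binds there. Cldn8 and Cldn23 are named only. In the RefSeq annotation Cldn4 and Cldn3 are next to each other on chromosome 5, with no protein-coding gene between them.

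The deposited values are linear intensities. All differences and folds were computed after adding 16 and taking log2, which makes the folds of dim genes too small. Median intensities were nearly equal within a day (21.96 and 21.93 at day 4, 19.3 and 19.5 at day 6, untreated and 4OHT), but the scaling between days is unknown. On both days the fall of signal from the 3′ to the 5′ probe set of Actb was steeper with 4OHT, by 0.94 and 0.62 on the log2 scale. The same difference for Gapdh was 0.87 and 0.56. For the spike-in probe sets, the 4OHT difference was -0.32 on day 4 and 0.75 on day 6 for hybridization controls, and -0.46 and 1.39 for poly-A controls. All 6 epithelial markers (such as Epcam and Krt8) were past the level filter, an intensity of 20.9 on at least 1 array, with a summed intensity of 14280 to 25660 per array. Markers of other tissues were dim, with summed intensities of 59.0 to 105 for 5 endothelial, 114 to 204 for 7 fibroblast and muscle and 132 to 237 for 6 immune markers, of which 5 in all stayed under the filter and none was at 0. In whole organoids, fewer cells of a type and less RNA per cell cannot be told apart.

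Of the 10 genes, 9 were past the level filter and were tested over both days, while Cldn1 was not. Cldn4 was the only one of the 9 that rose with 4OHT, beside 0.970% of all genes tested. None of the 9 fell, beside 2.25% of all genes tested. The Cldn4 call was lost in 8 of 15 alternative settings, which are given below. Cldn4 was 1.8-fold higher with 4OHT at day 4 and 3.9-fold higher at day 6, while Cldn15 was 1.47-fold higher at day 4 and 3.0-fold lower at day 6. The other 8 genes differed by less than 2-fold on both days. From day 4 to day 6, 6 of the 10 genes were at least 2-fold higher untreated and 4 with 4OHT, beside 24.1% and 16.4% of all genes. Taken with its sign, the difference between the days was higher untreated in 8 of the 10, beside 57.7% of all genes past the filter. This is the same as counting genes whose 4OHT difference was lower at day 6 than at day 4. The 8 include Cldn1, which was under the filter. They also include Ocln, whose order turned after quantile normalization (1.61 untreated and 1.65 with 4OHT).

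**Figure D1:**
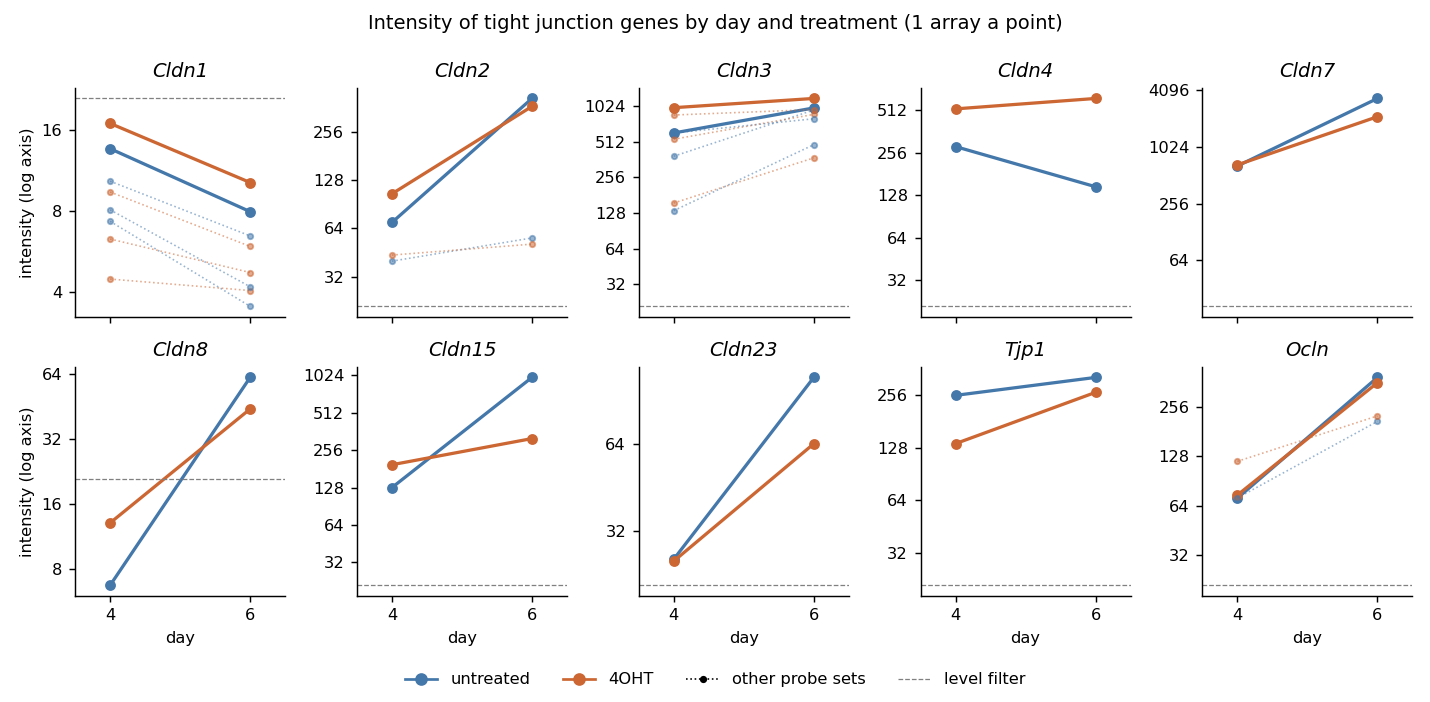
Intensity (log axis) of each gene at day 4 and day 6 in untreated (blue) and 4OHT (orange) organoids, 1 array a point, with the brightest probe set as solid lines, other probe sets dotted and the level filter dashed. Cldn4 is higher with 4OHT on both days, the lines of Cldn15 cross, and Cldn1 stays under the filter on every array. The panels have separate axes, and levels of different probe sets are not comparable.

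The test over both days was limma with 4OHT and day as additive terms on 13192 genes past the level filter, of which 9 were members. With the days standing in for replicates, its error holds how far the day 4 and day 6 effects lie apart, pooled over genes (1 residual and 15.2 prior degrees of freedom), and no spread between cultures. At an adjusted p under 0.05, 1 of the 9 members rose, beside 0.970% of all genes tested, and 0 fell, beside 2.25%. At an unadjusted p under 0.05 there were 3 members (Cldn4, Cldn3 and Tjp1), beside 13.9% of all genes tested. Cldn1 was not tested.

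**Figure D2:**
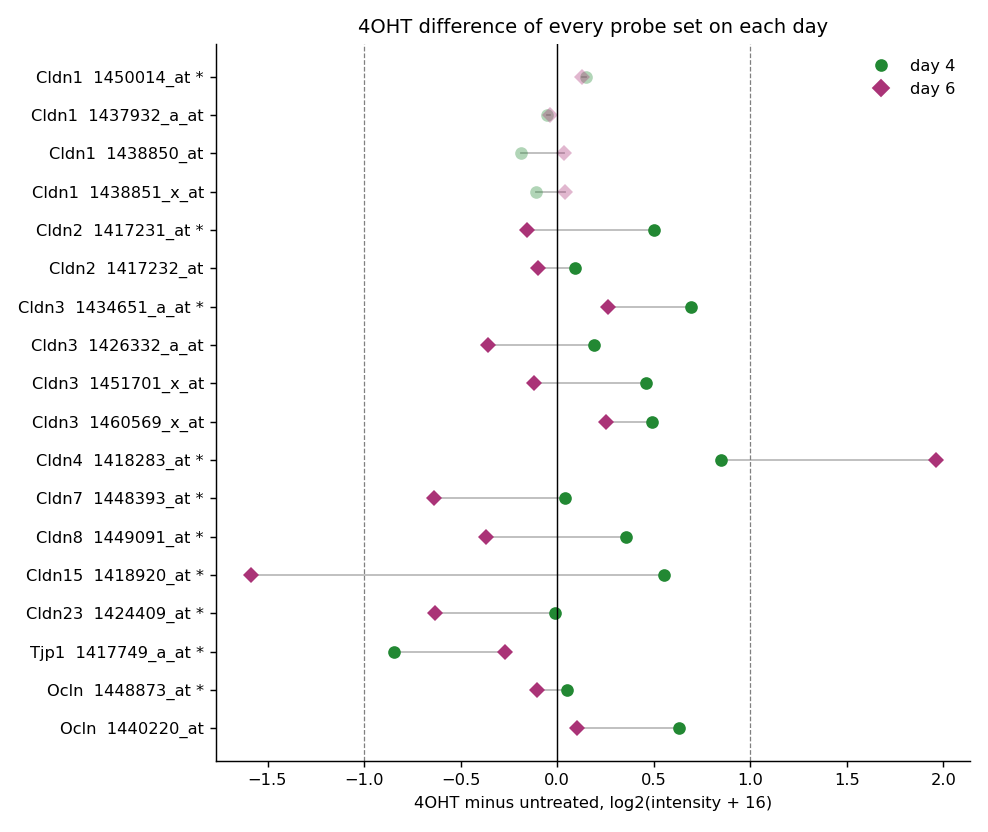
Difference with 4OHT (4OHT minus untreated, log2 of intensity + 16) of all 18 probe sets at day 4 (circles) and day 6 (diamonds), with the brightest probe set of a gene starred, probe sets under the level filter pale and dashed lines at 2-fold. Cldn4 lies at 0.85 and 1.96, and Cldn15 spans from 0.55 at day 4 to -1.59 at day 6.

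Of the 2 claudins known as channel formers, Cldn15 had the 4OHT difference that moved further between the days. Claudin-15 lets sodium back into the gut lumen, where nutrient uptake needs it. The intensity of Cldn15 (probe set 1418920_at) was 128 untreated and 195 with 4OHT at day 4, and 985 untreated and 317 with 4OHT at day 6. The untreated array of day 6 stood above the other 3, and the order of the arms turned between the days. The difference with 4OHT was 0.55 at day 4 and -1.59 at day 6. Over both days it was -0.52 ± 0.34 (SE), which did not pass (adjusted p = 0.561). Without the untreated array of day 6 it was 0.88, in a fit that drops the day term. Of all genes tested, 6 (0.0455%) were at least 0.5 higher at day 4 and at least 1 lower at day 6. These limits were set after the values of Cldn15 were seen and place it among the 6. The share therefore does not measure how unusual Cldn15 is.

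Of 12 enterocyte markers 11 were measured, of which 6 fell by the test and none rose, beside 2.25% and 0.970% of all genes tested. At day 4, 9 of the 11 were lower with 4OHT and at day 6 all 11 were. Apob and Lct differed by 0.10 and 0.06 at day 4 and by -1.76 and -1.08 at day 6. The markers' summed intensity was 4614 untreated and 2275 with 4OHT at day 4, and 15580 and 7850 at day 6. Their medians were -1.13 and -1.27, beside 0.06 and -0.0044 over all genes past the filter. Their part in the lower Cldn15 of day 6 was not tested.

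Cldn2, a cation and water channel known mainly from the crypt, was read by 2 probe sets. On the brighter (1417231_at) the intensities were 69.7 untreated and 105 with 4OHT at day 4, and 414 and 369 at day 6. The arms lay closer to each other than the days did. The difference with 4OHT was 0.50 at day 4 and -0.16 at day 6, and 0.17 ± 0.22 over both (adjusted p = 0.833). The dimmer probe set (1417232_at) ran from 40.0 to 55.8 over the 4 arrays, with differences of 0.09 and -0.10. Both probe sets gave the same order of arms on each day.

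Among the claudins counted as sealing, Cldn4 was the one that passed the test. Claudin-4 limits sodium passage and, like claudin-3, is a receptor of a Clostridium perfringens toxin. The intensity of Cldn4 (1418283_at, its only probe set) was 282 untreated and 522 with 4OHT at day 4, and 147 untreated and 618 with 4OHT at day 6. Both 4OHT arrays stood above both untreated arrays, so the arms did not overlap. The share of all genes with arms apart in this way was not counted. The difference was 0.85 at day 4 and 1.96 at day 6. Over both days Cldn4 rose by 1.41 ± 0.25 (SE, adjusted p = 0.004), and the size was 0.97 to 1.84 when single arrays were left out. The larger difference at day 6 came with a lower untreated value and a higher 4OHT value than at day 4, although after quantile normalization the 4OHT value was lower at day 6 (-0.20). The call was lost with no level filter and with a pseudocount of 1 or 64, where the size was 1.41, 1.48 and 1.23 and the adjusted p 0.291, 0.147 and 0.225. It was also lost without the day term and when any 1 array was left out.

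All 5 measured Paneth cell markers rose with 4OHT by the same test, beside 0.970% of all genes tested. The median difference of these markers was 0.80 on day 4 and 1.97 on day 6. Their summed intensity was 28960 untreated and 46530 with 4OHT at day 4, and 12500 and 43260 at day 6, so it too was lower at day 6 than day 4 in the untreated arm. Goblet cell markers (6 measured) had 2 that rose and 2 that fell, beside 0.970% and 2.25% of all genes tested. The part of these cells, and of the spike-in controls that were also higher with 4OHT at day 6, in the Cldn4 values was not tested. Over the 4 arrays, the genes whose mean-centred log2 values lay closest to those of Cldn4 were Reg4 (Euclidean distance 0.28), Itln1 (0.35), Lyz2 (0.39), Tuba1a (0.44) and Bnip5 (0.48), named by that distance among all genes past the filter. Itln1 is also one of the Paneth cell markers. Reg4, a secreted lectin-like protein, differed by 1.17 at day 4 and 2.18 at day 6.

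Cldn3, the sealing claudin next to Cldn4 on the chromosome, was read by 4 probe sets that did not give one answer. On the brightest (1434651_a_at) the intensities were 607 untreated and 992 with 4OHT at day 4, and 988 and 1187 at day 6. The 4OHT array was the higher of each day, although the untreated array of day 6 nearly reached the 4OHT array of day 4. Differences were 0.69 and 0.26, and 0.48 ± 0.22 over both days (unadjusted p = 0.0407, adjusted p = 0.328). At day 4 all 4 probe sets were higher with 4OHT, by 0.19 to 0.69. At day 6, 2 were higher (0.26 and 0.25) and 2 lower (-0.12 for 1451701_x_at and -0.36 for 1426332_a_at). None of the 4 passed when every probe set was fitted on its own.

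Cldn7, a claudin also found along the lateral membrane, where it binds EpCAM, had intensities of 638 untreated and 656 with 4OHT at day 4, and 3310 and 2122 at day 6. The arms were alike at day 4 and the 4OHT array was the lower at day 6, with differences of 0.04 (-0.035 after quantile normalization) and -0.64. Over both days the difference was -0.30 ± 0.22 (adjusted p = 0.633). Cldn23, a claudin less studied than the others, showed the same shape at a lower signal. Its intensities were 25.7 and 25.3 at day 4 and 108 and 63.9 at day 6, untreated and 4OHT, with differences of -0.01 and -0.63 and an effect over both days of -0.32 ± 0.22 (adjusted p = 0.585).

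Cldn8, which tightens the barrier to sodium in the distal colon, was near background at day 4, with intensities of 6.70 untreated and 13.0 with 4OHT, and reached 61.5 and 43.9 at day 6. It passed the level filter only through the arrays of day 6. The differences with 4OHT were 0.35 and -0.37, and -0.0080 ± 0.23 over both days (adjusted p = 0.997), a sign that turned after quantile normalization. Cldn1, a sealing claudin best known from skin, was dim: its brightest probe set (1450014_at) had intensities of 13.6 and 16.9 at day 4 and 7.94 and 10.2 at day 6, untreated and 4OHT. The other 3 probe sets of Cldn1 did not exceed 10.3 on any array, and the 4 probe sets did not share a direction.

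The scaffold gene Tjp1 was lower on the 4OHT array of each day. Its intensities (1417749_a_at) were 256 untreated and 135 with 4OHT at day 4, and 324 and 266 at day 6. The 4OHT array of day 6 lay slightly above the untreated array of day 4, so the arms overlapped. Differences were -0.84 and -0.27, and -0.56 ± 0.22 over both days, which did not pass (unadjusted p = 0.0221, adjusted p = 0.244). The steeper loss of 5′ signal of Actb and Gapdh on the 4OHT arrays was likewise larger at day 4 than at day 6. Its part in the Tjp1 values was not tested.

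Ocln was read by 2 probe sets. On 1448873_at the intensities were 71.2 and 74.3 at day 4 and 388 and 360 at day 6, untreated and 4OHT. The arms nearly coincided on each day, with differences of 0.05 and -0.10 and an effect of -0.026 ± 0.21 (adjusted p = 0.98), a sign that turned after quantile normalization. On 1440220_at they were 71.3 and 119 at day 4 and 209 and 226 at day 6, with differences of 0.63 and 0.10. The probe sets thus gave different directions at day 6 and a different size at day 4.

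Counted by day at 2-fold, without a test, the 10 genes gave few differences with 4OHT. At day 4 none was at least 2-fold higher and none lower, where 1.0% of all genes past the level filter were higher and 1.22% lower. At day 6, 1 was higher (Cldn4) and 1 lower (Cldn15), where 0.879% of all genes were higher and 2.97% lower. The median over the 10 genes was 0.25 at day 4 and -0.21 at day 6, beside 0.06 and -0.0044 over all genes past the filter. Of the 10, 8 lay above 0 at day 4 and 3 at day 6, for which no share of all genes was counted. Both counts include Cldn1, which was under the filter. The count of day 4 also includes Cldn7 and Ocln, at 0.04 and 0.05, which were -0.035 and -0.0037 after quantile normalization. Opposite signs on the 2 days were seen in 5 of the 9 members past the filter and in 42.0% of all such genes.

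Between the days the differences were larger than those with 4OHT for most of the genes. In untreated organoids 6 of the 10 were at least 2-fold higher at day 6 than at day 4 (Cldn2, Cldn7, Cldn8, Cldn15, Cldn23 and Ocln) and none was 2-fold lower, while 24.1% of all genes were higher and 5.29% lower. In 4OHT organoids 4 of the 10 were at least 2-fold higher (Cldn2, Cldn7, Cldn8 and Ocln) and none lower, beside 16.4% and 2.69% of all genes. Cldn8 enters both counts through its day 6 arrays alone. With a pseudocount of 64 the counts were 4 and 3, without Cldn8 in either arm and without Cldn23 untreated. Untreated, the median of the 10 genes was 1.67, and with 4OHT it was 0.93, against 0.16 and 0.04 over all genes. Median centring moved the all-gene median in the untreated arm to 0.27 and quantile normalization moved it to -0.13, and the members' medians became 1.48 and 0.64 under the latter. The shares of all genes were not counted under these other scalings or pseudocounts. These are single arrays with an unknown scaling between days, so no test was made. The 95th percentile of intensity was 314 untreated and 335 with 4OHT at day 4, and 518 and 472 at day 6. Median intensity was lower at day 6 in both arms, so bright and dim probe sets did not move alike. Control probe sets also moved from day 4 to day 6: poly-A controls by -2.87 untreated and -1.02 with 4OHT, and hybridization controls by -2.15 and -1.07. The 3′ to 5′ difference of Actb moved by -1.24 and -1.56, and that of Gapdh by -0.56 and -0.87. The part of these in the day differences was not tested.

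**Figure D3:**
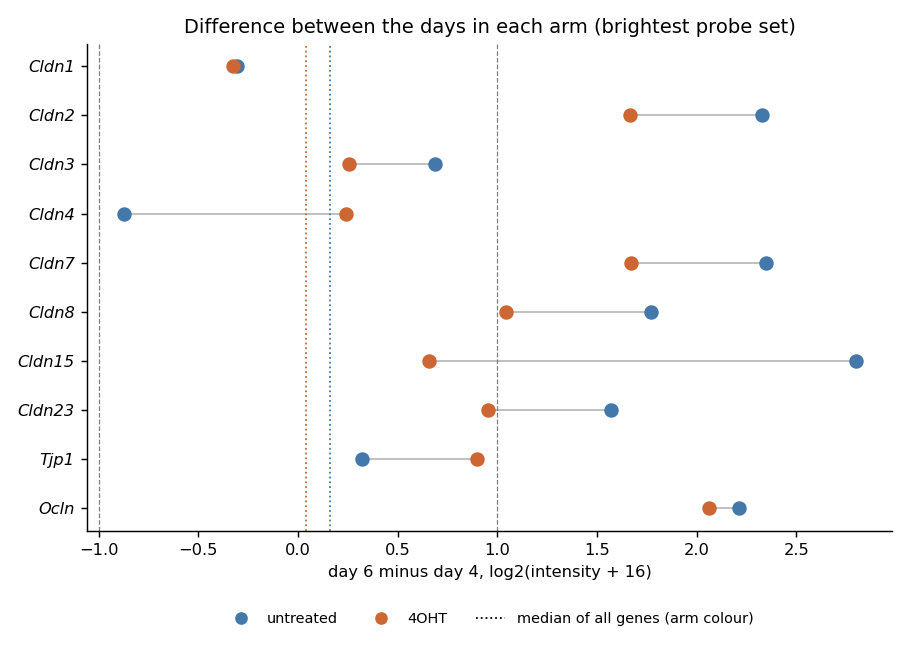
Difference between the days (day 6 minus day 4, log2 of intensity + 16) of the brightest probe set of each gene in untreated (blue) and 4OHT (orange) organoids, with dotted lines at the median of all genes in each arm and dashed lines at 2-fold. Cldn15 has the widest gap between the arms (2.80 and 0.66), and Cldn4 is the gene below 0 in the untreated arm and above 0 in the 4OHT arm.

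Cldn15 was 6.96-fold higher at day 6 than at day 4 in untreated organoids and 1.58-fold higher with 4OHT. Cldn7 was 5.08-fold and 3.18-fold higher, Cldn2 5.01-fold and 3.18-fold, and Ocln 4.64-fold and 4.17-fold, untreated and 4OHT in turn. Ocln thus kept the most similar difference in both arms among these. Its other probe set gave 2.58-fold and 1.79-fold, and the dimmer probe set of Cldn2 gave 1.28-fold and 1.12-fold. Cldn23 was 2.97-fold and 1.94-fold higher. Cldn8 is given no fold, since its day 4 values lay under the level filter and the pseudocount sets the size: its log2 difference was 1.77 untreated and 1.05 with 4OHT, but 3.02 and 1.68 with a pseudocount of 1 and 0.83 and 0.49 with 64. Cldn3 was 1.61-fold and 1.19-fold higher on its brightest probe set and 3.33-fold and 2.27-fold on 1426332_a_at. After quantile normalization the log2 differences of the brightest were 0.02 untreated and -0.14 with 4OHT.

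Cldn4 went the other way in the untreated arm, 1.83-fold lower at day 6 than at day 4, and was 1.18-fold higher in the 4OHT arm, a direction that turned (-0.20) after quantile normalization. Tjp1 was 1.25-fold higher untreated (-0.37 on the log2 scale after quantile normalization) and 1.86-fold higher with 4OHT. With the sign kept, the difference between the days was higher in the 4OHT arm in 2 of the 10 genes, Cldn4 and Tjp1. By size, that of Cldn4 was larger in the untreated arm (-0.87 against 0.24). That of Cldn1, under the level filter, was slightly larger in the 4OHT arm (-0.33 against -0.31). Of all genes past the filter, 57.7% had the higher signed difference in the untreated arm.

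Other genes of the junctions were taken in 4 lists, with 68 measured of 75 named. Of 59 tested, none rose and 1 fell by limma, where 0.970% of all genes rose and 2.25% fell. At an unadjusted p under 0.05 there were 4 of the 59, beside 13.9% of all genes, so neither count stands above the background. The gene that fell was Mylk, the kinase that drives contraction of the actomyosin ring at the junction. The intensity of Mylk was 126 untreated and 56.6 with 4OHT at day 4, and 649 and 216 at day 6. It was lower with 4OHT on each day, though not below the untreated array of day 4 at day 6, and fell by 1.25 ± 0.22 (adjusted p = 0.00382). The call held in 5 of 14 alternatives. It was lost with a pseudocount of 1 or 64, with no level filter, with probe sets averaged (-0.63), without the day term and without any 1 array (-2.36 to -0.13).

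**Figure D4:**
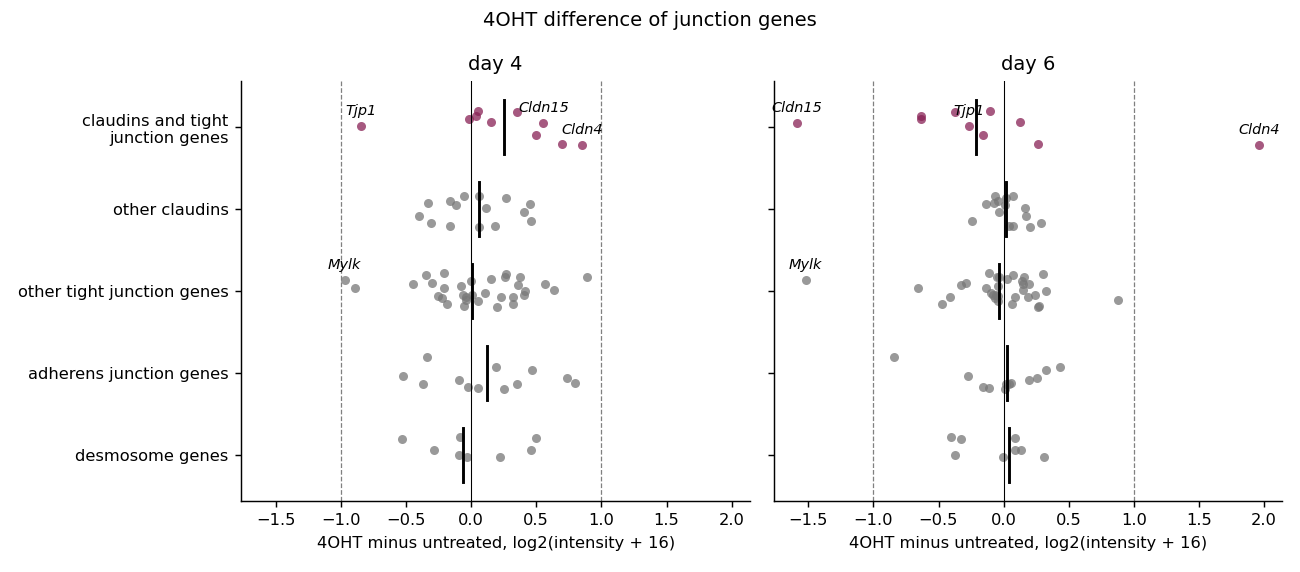
Difference with 4OHT (log2 of intensity + 16) at day 4 (left) and day 6 (right) of the 10 genes (top row) and of 4 lists of other junction genes, 1 point a measured gene, with black bars at the list medians and dashed lines at 2-fold. The medians of the 4 other lists lie between -0.06 and 0.12 on both days, while Cldn4, Cldn15 and Mylk lie past 2-fold at day 6.

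Of the other tight junction genes, 33 were measured and 32 tested, with medians of 0.0064 and -0.03. The scaffold gene Magi3 was lower on both days, by -0.89 and -0.66 (adjusted p = 0.0573), and Ildr2, whose protein sits where 3 cells meet, was higher by 0.41 and 0.33 (adjusted p = 0.473). F11r, which encodes the junctional adhesion molecule JAM-A, had a shape like that of Cldn2, with 0.36 at day 4 and -0.32 at day 6, and Marveld2, a relative of occludin, differed by 0.26 and 0.30. F11r and Marveld2 were picked for naming with their values in view. Of 15 other claudins measured, 7 were past the filter and none passed the test, with medians of 0.06 and 0.02. Cldn9 differed by 0.06 and 0.07, and Cldn5, an endothelial claudin, by 0.27 and 0.02 with an intensity of at most 24.1. The remaining 8 lay under the filter.

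None of 12 adherens junction and 8 desmosome genes passed. The adherens medians were 0.12 and 0.03, and the cell adhesion gene Nectin3 (-0.34 and -0.84), Vcl, which links cadherins to actin (0.47 and 0.32), and Ctnnb1, which encodes beta-catenin (-0.52 and -0.27), had the largest differences shared by the days. The desmosome medians were -0.06 and 0.04, with the desmosomal cadherin gene Dsc2 at -0.53 and -0.33, Dsp at 0.22 and 0.31 and Pkp2 at -0.09 and -0.38. From day 4 to day 6 the adherens list had medians of 1.10 untreated and 1.20 with 4OHT. Of its 12 genes, 6 and 8 were at least 2-fold higher, beside 24.1% and 16.4% of all genes. After quantile normalization the adherens medians were 0.55 and 0.84, beside -0.13 and -0.15 over all genes past the filter. The counts were then 4 and 5, for which no share of all genes was counted under that scaling. The list of other tight junction genes had medians of 0.20 and 0.24, which turned to -0.12 and -0.03 after quantile normalization.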

How the data were processed

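Per the labels' protocols, organoids were recovered from Matrigel, total RNA was extracted on columns, and biotinylated copy RNA was made with a 3′ in vitro transcription kit, so probe sets read mostly 3′ ends. The values are deposited intensities on a linear scale, 1 per probe set and array. No header or label says how the authors corrected, normalized and summarised them. All 4 columns were used and no other sample columns were present.

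Probe sets were named through GEO's platform annotation, and the 34945 that name 1 gene were kept. Values were moved to log2(intensity + 16), where 16 is a pseudocount. Each gene was given its brightest probe set, and passed the level filter where its highest intensity reached the median of all values, 20.9. The 4OHT effect was tested with limma 3.58.1 in R 4.3.3 (lmFit, eBayes, 4OHT and day as terms), with Benjamini-Hochberg adjustment over 13192 genes and a threshold of 0.05. Its prior SD was 0.215. A gene "rose" or "fell" where it passed. Contrasts of 1 array with 1 carry no test and were counted at 2-fold. Arms at one day share arrays with the contrasts between days. The test was run on simulated data first. The members, gene lists and rules were chosen with earlier results of these data known. Named genes were all members, up to 3 of each junction list, ranked by the lesser of both days' differences where these share a sign, and those past the test. Of the lists, Pals1 was found as Mpp5, and some genes, among them Cldn17, Cldn20, Cldn24, Cldn25, Cldn34a, Magi2, Sis and Defa24, were not analysed here. Stem cell (4), enteroendocrine (3) and tuft cell (3) markers gave 1 that rose (Smoc2) and none that fell, beside 0.970% and 2.25% of all genes. Alternatives were other level filters, pseudocounts, scalings, choices of probe set, thresholds and models. Python 3.11.15, pandas 2.3.3, numpy 2.4.6 and matplotlib 3.10.9 were used.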

Additional observations from a re-analysis of the deposited data

Results flagged for a closer look

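In 5 of the 9 genes past the level filter, the 4OHT difference had opposite directions at day 4 and day 6. The difference at day 6 minus that at day 4 was -2.14 for Cldn15, -0.73 for Cldn8, -0.68 for Cldn7, -0.66 for Cldn2 and -0.15 for Ocln, on the log2(intensity + 16) scale. With 1 array a group these differences were not tested, and 42.0% of all genes past the filter also had opposite directions. For Cldn7 and Ocln the difference at day 4 (0.04 and 0.05) turned negative after quantile normalization. The day 6 difference of Ocln then turned positive (0.033), so both of its signs were reversed. On the other Ocln probe set, 1440220_at, the 4OHT difference was positive on both days (0.63 and 0.10). For Cldn15 the differences remained at 0.48 and -1.46 after quantile normalization.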

How the results depend on the processing

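With 1 array a group there were no replicates to pair. The day term of the test already sets the arms against each other within a day. Cldn4 rose under both other scalings, both stricter level filters and all 3 other treatments of probe sets (adjusted p of 0.000831 to 0.026). Cldn4 has 1 probe set, so the filters and probe set treatments left its size at 1.41 and changed only the other genes in the test. They are therefore no check on the Cldn4 values themselves. The number of members that rose was 0 with a pseudocount of 1 or 64, with no level filter and without the day term, and 0 to 0 when single arrays were left out, where the day term had to be dropped. In these settings the size for Cldn4 was 0.97 to 1.84 with adjusted p of 0.147 to 1. No member fell in any setting. Over all genes, 128 rose and 297 fell, against 7 and 40 with a pseudocount of 1, 62 and 183 with the filter on the mean, 77 and 226 with every probe set fitted, 77 and 227 after quantile normalization, 84 and 237 with probe sets averaged, and 0 with a pseudocount of 64, no level filter or no day term. Leaving out 1 array gave 0 to 8 that rose and 0 to 57 that fell. Directions over both days turned for Cldn8 with a pseudocount of 1 (0.19) and quantile normalization (0.023), and for Ocln with quantile normalization (0.014) and the mean of all probe sets (0.17). Leaving out single arrays mixes day with 4OHT and gave -0.99 to 1.33 for Cldn2, -1.47 to 0.87 for Cldn7, -0.89 to 0.88 for Cldn8, -1.92 to 0.88 for Cldn15, -1.11 to 0.46 for Cldn23 and -1.13 to 1.08 for Ocln. Cldn3 and Tjp1 kept their direction in all 15 alternatives, which read only the brightest probe set where every probe set was fitted. Of the Cldn3 probe sets fitted singly, 1426332_a_at was at -0.08 over both days. The probe sets 1434651_a_at, 1451701_x_at and 1460569_x_at were at 0.48, 0.17 and 0.37. Tjp1 has 1 probe set, so the choice of probe set could not change it. At 1.5-fold, 2 members were higher and 1 lower with 4OHT at day 4, and 3 were lower at day 6. Between the days, 1 was lower at day 6 than day 4 in the untreated arm and 7 were higher in the 4OHT arm. Shares of all genes were counted at 2-fold only, so the 1.5-fold counts cannot be set against a background. After quantile normalization 1 member, Cldn4, was 2-fold lower at day 6 in the untreated arm. Signal near background limits Cldn1 and Cldn8.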
